A study of Mus musculus and Homo sapiens with 8 samples.

Results

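Genes of the red cell programme were followed in both RNA-seq comparisons of the study: the globins and their chaperone, enzymes of heme metabolism, proteins of the red cell membrane and its skeleton, and the nuclear factor hemogen. The 33 genes were named by symbol. The tables of KU812, a human line from chronic myeloid leukemia, hold 32 of them among 20296 genes, and HBZ is not analysed here. The tables of mouse LSK cells, the Lin- Sca-1+ c-Kit+ fraction of marrow that contains the stem cells, hold 25 among 17097 genes, counting the same symbols in mouse spelling and the mouse globins Hba-a1, Hba-a2, Hbb-bs and Hbb-bt. All 32 and all 25 passed the filter on low counts.

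LSK cells came from C57BL/6 mice that were WT or Anp32b-KO, with 2 libraries each, and KU812 cells carried the control hairpin shNC or the hairpin shANP32B, with 2 libraries each. The groups bear no other named allele or agent. The deleted part of Anp32b, whether the deletion was in all cells, the age and number of the mice, whether marrow was pooled, and the time after hairpin delivery are not stated. The knockdown rests on 1 hairpin name in 1 line. The title of the series places the comparison in work on p53 and on normal and leukemic stem cells.

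A red cell precursor makes alpha-type and beta-type globin chains in balance, and the chaperone AHSP holds free alpha chains until they pair. Heme is built in a chain of enzymes that begins with ALAS2 and ends when FECH inserts iron into the ring. Under the membrane, spectrin and actin form a mesh that ankyrin, adducin, protein 4.1 and protein 4.2 tie to membrane proteins such as band 3, the product of SLC4A1. In marrow, the globins and many of the other genes come on strongly only in erythroid precursors, downstream of factors such as GATA1 and KLF1, while LSK cells lie far upstream of that stage.

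The start regions of 5 mouse genes show the kind of sequence at which such factors act, and they were chosen because the globin copies and the genes Hemgn and Cpox recur in the results below. Each window runs from 250 bases before to 50 bases after the start in the RefSeq table for GRCm38.p6, and is written 5′ to 3′ in the sense of the gene. Capitals mark AGATAA or TGATAA, the letters that GATA factors favour, and CACCC, the letters that KLF factors favour, on either strand. Hba-a1 (chr11:32283422-32283721, plus strand), Hbb-bs (chr7:103827879-103828178, minus strand), Hbb-bt (chr7:103813874-103814173, minus strand), Hemgn (chr4:46404134-46404433, minus strand) and Cpox (chr16:58669958-58670257, plus strand) read as follows.
Hba-a1: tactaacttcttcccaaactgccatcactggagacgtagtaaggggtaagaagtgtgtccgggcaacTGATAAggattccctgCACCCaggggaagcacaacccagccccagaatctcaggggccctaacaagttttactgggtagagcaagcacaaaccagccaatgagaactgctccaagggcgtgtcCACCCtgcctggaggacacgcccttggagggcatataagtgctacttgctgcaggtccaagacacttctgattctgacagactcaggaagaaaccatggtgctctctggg
Hbb-bs: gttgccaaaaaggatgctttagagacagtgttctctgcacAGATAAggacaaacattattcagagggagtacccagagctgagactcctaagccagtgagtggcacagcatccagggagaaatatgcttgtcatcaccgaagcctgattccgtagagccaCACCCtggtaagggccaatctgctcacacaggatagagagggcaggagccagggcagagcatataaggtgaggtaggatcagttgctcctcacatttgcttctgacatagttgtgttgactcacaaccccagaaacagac
Hbb-bt: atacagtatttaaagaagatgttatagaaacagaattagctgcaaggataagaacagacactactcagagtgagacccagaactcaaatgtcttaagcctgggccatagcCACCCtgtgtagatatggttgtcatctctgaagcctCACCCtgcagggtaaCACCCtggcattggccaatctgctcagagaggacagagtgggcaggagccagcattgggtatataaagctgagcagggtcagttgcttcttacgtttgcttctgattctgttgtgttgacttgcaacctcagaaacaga
Hemgn: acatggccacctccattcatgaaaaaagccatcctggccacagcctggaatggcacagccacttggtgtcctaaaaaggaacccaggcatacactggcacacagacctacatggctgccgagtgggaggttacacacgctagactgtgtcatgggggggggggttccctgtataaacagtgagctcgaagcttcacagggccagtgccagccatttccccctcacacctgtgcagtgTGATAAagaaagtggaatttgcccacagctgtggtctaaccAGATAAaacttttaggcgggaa
Cpox: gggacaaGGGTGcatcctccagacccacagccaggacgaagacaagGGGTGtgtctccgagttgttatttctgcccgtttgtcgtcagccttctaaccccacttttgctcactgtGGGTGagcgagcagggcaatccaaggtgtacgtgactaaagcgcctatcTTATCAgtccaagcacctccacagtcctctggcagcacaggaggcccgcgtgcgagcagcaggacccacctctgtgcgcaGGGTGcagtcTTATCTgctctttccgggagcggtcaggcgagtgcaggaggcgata

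Of the 25 LSK genes, 21 had 24 windows in that table, since some genes have several starts. AGATAA or TGATAA was in 12 of these 24 windows, against 18.6% of all 32841 windows, and CACCC was in 19 of 24, against 57.5%, with both strands searched. With positions given for the first base of a match, Hemgn held the GATA letters at 13 bases before and 28 bases after the start and no CACCC. Cpox held GATA letters at 86 bases before and 4 bases after the start and CACCC 4 times. The windows of Hba-a1 and Hba-a2 share an unbroken stretch of 297 bases, and their coding sequences differ at 1 of 429 bases. Those of Hbb-bs and Hbb-bt also differ at 1 of 444 coding bases, but share no window stretch longer than 14 bases. Reads from such copies, and from the human pairs HBA1 and HBA2 or HBG1 and HBG2, can be assigned to either gene. How the authors' counting treated them is not given, so the split within each pair is uncertain. The total of a pair is uncertain too, since reads shared by its copies may have been left out. A match is a description of these letters and not a bound site.

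Library totals were 24416691 to 28209409 counts in KU812 and 10549358 to 15683480 in LSK, so that 3 counts equal 0.107 to 0.122 CPM (a count relative to the TMM-scaled library total) in the first and 0.197 to 0.286 CPM in the second. ANP32B was at 250 and 286 CPM with shNC and at 40.4 and 38.2 CPM with shANP32B, and Anp32b was at 794 and 730 CPM in WT and at 201 and 249 CPM in KO. The WT pair of LSK libraries stood further apart than the KO pair (chi-square per degree of freedom of 47.7 against 7.70 over all genes), and LSK results are therefore given with and without single libraries where these decide them. Kit was at 335 to 399 CPM and Ly6a, which encodes Sca-1, at 37.8 to 60.2 CPM in LSK. In KU812 the erythroid marker KLF1 was at 189 to 341 CPM. Whether the libraries of a group came from different mice or cultures is unknown, so the p-values cover only the spread between libraries, which may be technical.

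After knockdown in KU812, 15 of the 32 genes fell, 1 rose and 16 did not pass the test (edgeR's quasi-likelihood test over 16529 genes, adjusted p under 0.05). Among all genes tested, 9.06% fell and 7.53% rose. The 15 were HBB, HBE1, HBG2 and AHSP, the heme enzymes ALAS2, CPOX and FECH, the skeleton genes EPB41, EPB42, ANK1, ADD2 and TMOD1, the membrane proteins SLC4A1 and RHD, and HEMGN. HBD rose. The median log2 fold change of the 32 genes was -0.45, against 0.0041 over all genes tested, and 27 of the 32 values were below 0. For 23 genes both shANP32B libraries lay below both shNC libraries, and for 2, HBD and UROS, above them, where 28.9% and 29.5% of all genes tested did. In a bulk library, fewer cells that express these genes and less RNA per cell cannot be told apart.

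**Figure D1:**
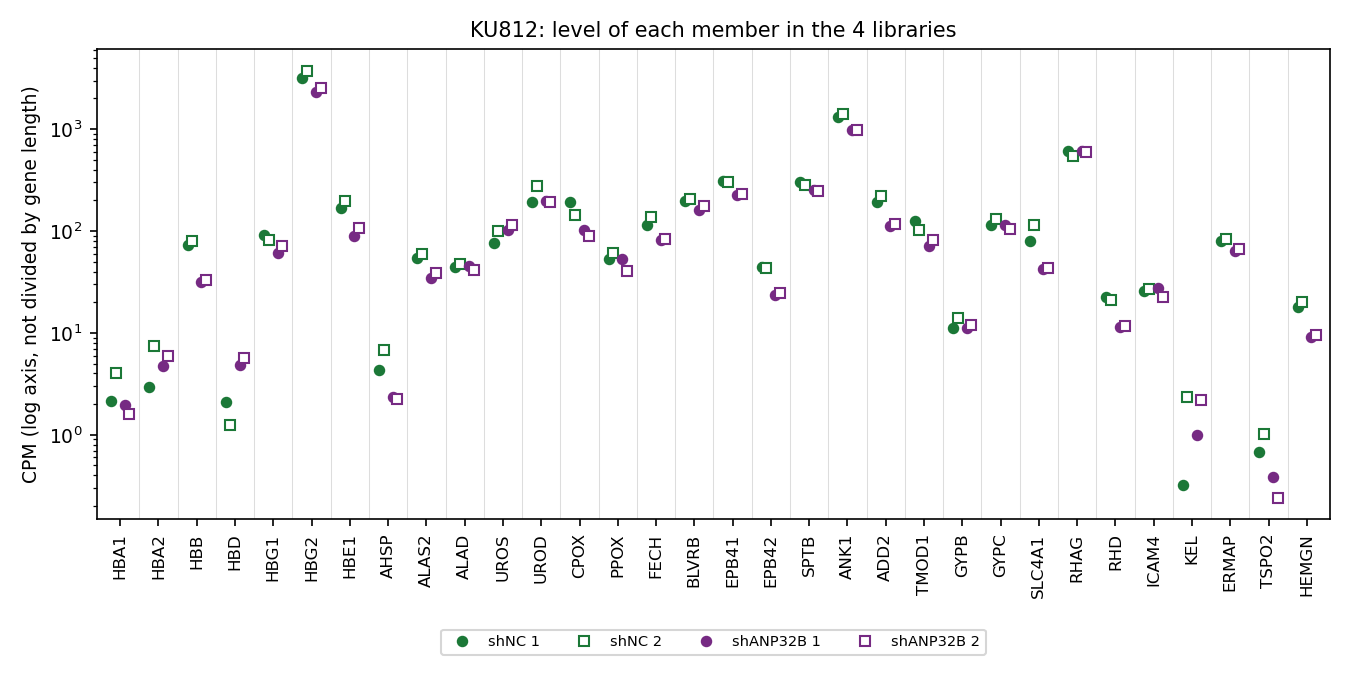
Level of each of the 32 genes in the 4 KU812 libraries, in CPM on a log axis and not divided by gene length; green marks are shNC, purple marks shANP32B, circles the libraries numbered 1 and squares those numbered 2. The purple marks lie below both green ones for HBB (72.7 and 80.3 against 31.8 and 33.3 CPM) and above them for HBD.

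HBB, the adult beta chain, was at 72.7 and 80.3 CPM with shNC and at 31.8 and 33.3 CPM with shANP32B, a log2 fold change of -1.23 (SE 0.13, adjusted p = 4.27e-05). HBE1, the embryonic epsilon chain, was at 168 and 195 CPM against 89.6 and 107 CPM (-0.88, SE 0.13, adjusted p = 0.0005). HBG2, a fetal gamma chain, was at 3206 and 3754 CPM against 2331 and 2524 CPM (-0.52, SE 0.092, adjusted p = 0.0021). An adult, an embryonic and a fetal chain thus fell. In each of these 3 genes the shANP32B libraries lay below the shNC libraries, as for 28.9% of all genes tested. HBG1, the other gamma gene, was at 90.9 and 82.2 CPM against 61.3 and 71.8 CPM, and its -0.38 (SE 0.13) did not pass (adjusted p = 0.0577), although DESeq2 called it at an adjusted p of 0.0417. AHSP was at 4.36 and 6.79 CPM against 2.35 and 2.26 CPM (-1.27, SE 0.34, adjusted p = 0.0202). The AHSP call was lost without shNC library 2 (adjusted p = 0.0717), without shANP32B library 1 (0.0526) or without shANP32B library 2 (0.0694).

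HBD, the minor adult delta chain, went the other way, at 2.11 and 1.26 CPM with shNC and at 4.86 and 5.73 CPM with shANP32B (1.64, SE 0.36, adjusted p = 0.0077). These levels rest on 59 and 31 counts against 126 and 142. The groups did not overlap, and the rise passed in each of the fits that left out 1 library, at log2 fold changes of 1.31 to 2.06. HBBP1, the pseudogene of the same cluster, was at 19.5 and 15.1 CPM against 10.3 and 9.72 CPM and fell (-0.79, SE 0.20, adjusted p = 0.0169). The alpha-chain genes were low in these counts, which may lack reads shared by HBA1 and HBA2. HBA1 was at 2.15 and 4.07 CPM against 1.97 and 1.61 CPM, and HBA2 at 2.93 and 7.36 CPM against 4.75 and 5.89 CPM. Their log2 fold changes of -0.79 (SE 0.42, adjusted p = 0.226) and 0.052 (SE 0.37, adjusted p = 0.948) did not pass, and the HBA2 value changes sign with the library left out.

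The globin genes together took 0.351% and 0.400% of the shNC counts and 0.258% and 0.279% of the shANP32B counts. The mean difference was -0.107 percentage points, and the exact permutation test gave its smallest possible 2-sided p for 2 against 2 libraries, 0.333. Gamma-chain counts made up nearly all of the beta-type globin counts, at 93.1% and 93.3% with shNC and 94.99% and 94.7% with shANP32B. HBE1 took 4.74% and 4.74% of these counts against 3.56% and 3.91%, and HBB took 2.05% and 1.95% against 1.26% and 1.21%. HBD took 0.0596% (exact 95% interval 0.0454% to 0.0769%) and 0.0307% (0.0208% to 0.0435%) against 0.193% and 0.209%. The mix of chains therefore held less HBB and HBE1 and more gamma and HBD with shANP32B, each without overlap between the groups and each at an exact permutation p of 0.333. These shares are of counts, not per length, and the intervals cover counting error only. Reads shared by gene copies may be missing from them.

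**Figure D2:**
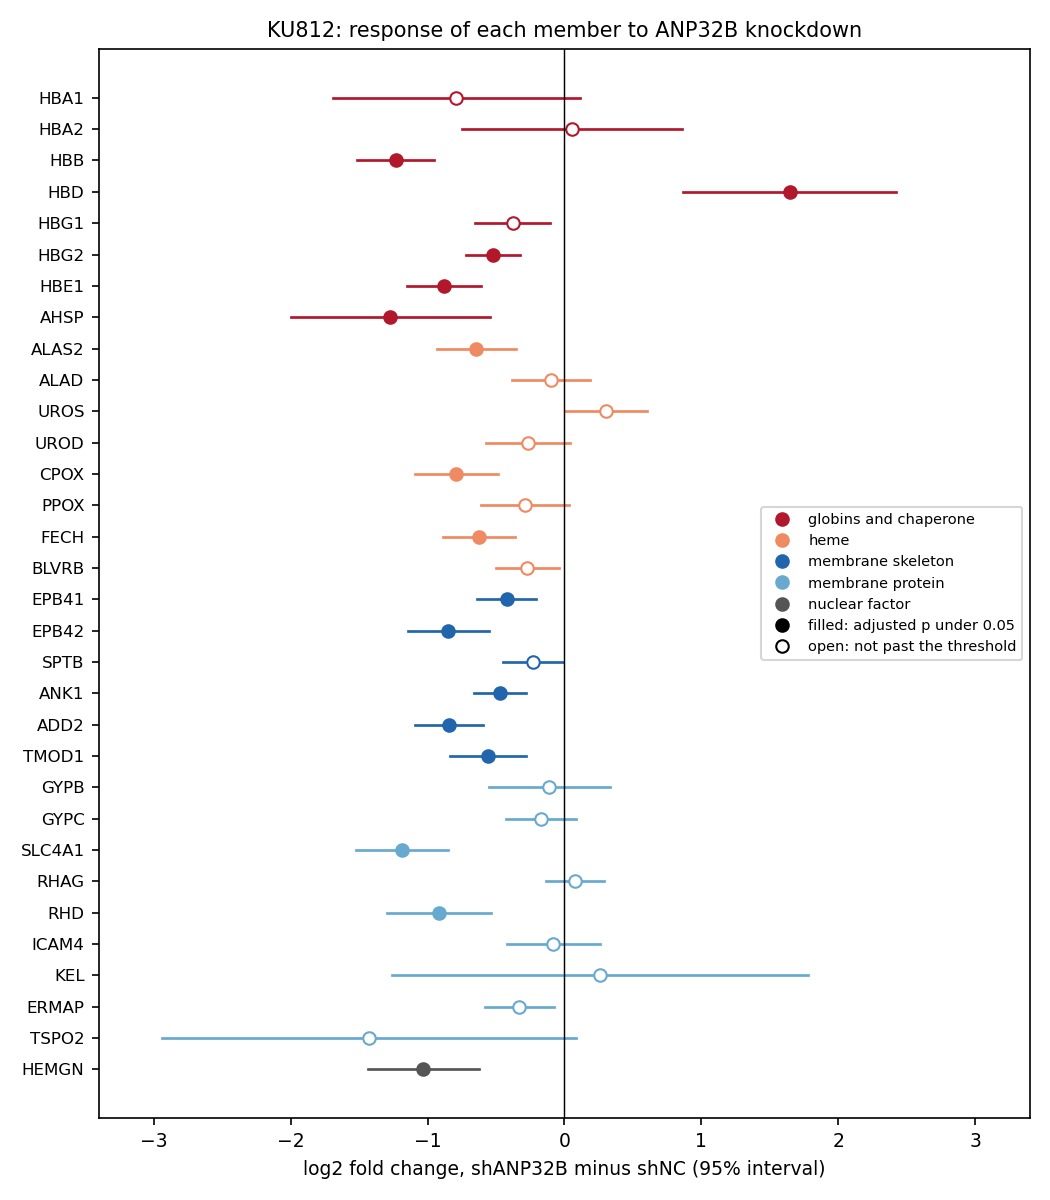
Log2 fold change (shANP32B minus shNC) of the 32 genes in KU812 with its 95% interval, both without moderation by a prior count, coloured by role; filled points passed the test at an adjusted p under 0.05 and open points did not. HBD is the filled point to the right of 0, and 15 filled points lie to the left.

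Of the 8 heme genes, BLVRB of heme breakdown and the others of synthesis, 3 fell and none rose (median log2 fold change -0.28). Among all genes tested, 9.06% fell and 7.53% rose. ALAS2, the erythroid form of the enzyme that starts the pathway, was at 54.8 and 59.0 CPM with shNC and at 34.3 and 38.5 CPM with shANP32B (-0.64, SE 0.13, adjusted p = 0.0054). CPOX, which turns coproporphyrinogen into protoporphyrinogen, was at 191 and 142 CPM against 103 and 89.8 CPM (-0.79, SE 0.14, adjusted p = 0.0022). FECH, which inserts the iron, was at 115 and 139 CPM against 80.8 and 83.9 CPM (-0.62, SE 0.12, adjusted p = 0.0041). ALAS2 and FECH, from the start and end of the pathway, thus fell, while the steps between them were uneven. Their shANP32B libraries lay below their shNC libraries, as for 28.9% of all genes tested. ALAS1, the other form of the first enzyme, had more counts, at 206 and 167 CPM against 197 and 156 CPM. It did not pass (-0.082, SE 0.14, adjusted p = 0.739), and its groups overlapped. The ALAS2 call was lost without shANP32B library 1 (adjusted p = 0.0674).

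UROS, which closes the ring, was at 75.7 and 100.1 CPM against 103 and 114 CPM (0.30, SE 0.14, adjusted p = 0.155) and was the only heme gene of the 8 with a value above 0. UROD, the next enzyme, was at 193 and 276 CPM against 195 and 193 CPM (-0.27, SE 0.14, adjusted p = 0.223). PPOX, which oxidises protoporphyrinogen, was at 53.2 and 60.3 CPM against 52.8 and 40.1 CPM (-0.29, SE 0.15, adjusted p = 0.217). None of these passed, and the UROD groups overlapped. BLVRB, a biliverdin reductase of heme breakdown, was at 199 and 208 CPM against 161 and 176 CPM (-0.27, SE 0.11, adjusted p = 0.104). ALAD, the second enzyme of the pathway, was at 44.2 and 48.0 CPM against 45.0 and 41.0 CPM.

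Of the membrane skeleton genes, 5 of 6 fell, where 9.06% of all genes tested did, with a median log2 fold change of -0.51. ADD2, the beta subunit of adducin, was at 192 and 222 CPM with shNC and at 112 and 118 CPM with shANP32B (-0.84, SE 0.11, adjusted p = 0.0003). EPB42, which binds band 3 to ankyrin, was at 44.5 and 43.2 CPM against 23.8 and 24.8 CPM (-0.85, SE 0.14, adjusted p = 0.0012). ANK1, the erythroid ankyrin, was at 1322 and 1412 CPM against 989 and 983 CPM (-0.47, SE 0.088, adjusted p = 0.0030). All 6 genes had both shANP32B libraries below both shNC libraries, where 28.9% of all genes tested did. TMOD1, which caps the short actin filaments of the mesh, was at 125 and 102 CPM against 72.0 and 82.3 CPM (-0.56, SE 0.13, adjusted p = 0.0105). EPB41, which joins spectrin to actin, was at 310 and 303 CPM against 225 and 232 CPM (-0.42, SE 0.10, adjusted p = 0.0118). Without shANP32B library 1 the calls of TMOD1 (adjusted p = 0.102) and EPB41 (0.116) were lost, and without shANP32B library 2 that of EPB41 (0.0742). SPTB, the beta chain of spectrin, was at 301 and 282 CPM against 251 and 246 CPM and did not pass (-0.23, SE 0.10, adjusted p = 0.139).

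Among the membrane proteins, 2 of 9 fell, where 9.06% of all genes tested did. SLC4A1, the anion exchanger band 3, was at 79.9 and 114 CPM with shNC and at 42.3 and 43.0 CPM with shANP32B (-1.18, SE 0.16, adjusted p = 0.00028). RHD, which carries the Rh D antigen, was at 22.7 and 21.0 CPM against 11.5 and 11.7 CPM (-0.92, SE 0.18, adjusted p = 0.0034). RHAG, the partner that Rh proteins need at the surface, was at 611 and 543 CPM against 615 and 603 CPM (0.077, SE 0.098, adjusted p = 0.652). RHD and RHAG, parts of the same membrane complex, thus gave different values, and the RHAG interval of -0.13 to 0.29 excludes the change measured for RHD. The difference between the genes was not tested. ERMAP, the carrier of the Scianna antigens, was at 80.1 and 84.4 CPM against 64.3 and 66.6 CPM (-0.33, SE 0.12, adjusted p = 0.0735).

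The other membrane proteins had values of -1.41 to 0.26, none past the threshold. GYPC, the glycophorin that binds protein 4.1, was at 116 and 132 CPM against 115 and 104 CPM (-0.17, SE 0.12, adjusted p = 0.362). TSPO2, a relative of the mitochondrial translocator protein, was at 0.680 and 1.02 CPM against 0.386 and 0.242 CPM (-1.41, SE 0.70, adjusted p = 0.190), close to the level of 3 counts. Low counts leave wide intervals here. GYPB, another glycophorin, was at 11.2 and 13.9 CPM against 11.2 and 11.98 CPM, and ICAM4, an adhesion protein of red cells, at 25.7 and 27.0 CPM against 27.4 and 22.3 CPM. KEL, the Kell blood group protease, was at 0.322 and 2.36 CPM against 1.00 and 2.18 CPM. HEMGN, a nuclear protein of blood cell precursors, was at 18.0 and 20.1 CPM against 9.11 and 9.52 CPM and fell (-1.03, SE 0.19, adjusted p = 0.0026).

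Other genes that work beside these were read, list by list, in the same fit. The shares to set beside each list are those of all genes tested, of which 9.06% fell and 7.53% rose. Of 20 other heme genes, 6 fell and 3 rose, with a median of 0.020. CLPX, which helps to activate the ALAS enzyme, fell by 0.66 on the log2 scale, the biliverdin reductase BLVRA by 0.61 and the mitochondrial transporter ABCB10 by 0.58. SLC25A37, a mitochondrial iron importer, also fell. The 3 that rose were SLC48A1, HMOX1 and FLVCR2, which act in heme transport and breakdown. FLVCR2 was close to the level of 3 counts with shNC, at 0.143 and 0.122 CPM against 1.35 and 0.484 CPM. HMOX1, the inducible heme oxygenase, was at 6.37 and 6.06 CPM against 10.6 and 10.4 CPM (0.76, SE 0.23, adjusted p = 0.0368). ALAS1, SLC25A37 and the 3 genes that rose were named after their values were seen.

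Of 30 other red cell membrane genes, 6 fell and 4 rose (median -0.078). AQP1, the red cell water channel, rose from 28.9 and 24.4 CPM to 113 and 86.0 CPM (1.90, SE 0.16, adjusted p = 5.37e-06). SLC2A1, the glucose transporter GLUT1, fell by 1.07, tropomyosin TPM1 by 0.91 and XK, which binds the Kell protein, by 0.84 on the log2 scale. Membrane genes thus moved in both directions. Of 18 genes of erythroid transcription and globin switching, 4 fell and none rose (median -0.25). They were LDB1 at -0.66, KLF1 at -0.68, the erythropoietin receptor EPOR at -0.66 and FOXO3 at -0.52 on the log2 scale. KLF1, a factor that drives HBB, was at 319 and 341 CPM against 223 and 189 CPM (adjusted p = 0.0013). GATA1 was at 197 and 206 CPM against 219 and 188 CPM (0.016, SE 0.11, adjusted p = 0.944), with groups that overlapped. Of 11 other globins and erythroid enzymes, 5 fell and none rose (median -0.41), among them the carbonic anhydrases CA2 (-1.29) and CA1 (-0.87), the peroxiredoxin PRDX2 (-0.49) and HBBP1.

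Markers of other blood lineages moved in the same libraries, where 9.06% of all genes tested fell and 7.53% rose. Of the basophil and mast cell list, 9 of 11 markers were in the tables, 4 rose and none fell, and the sum was 4285 to 4662 CPM with shNC and 5619 to 5626 CPM with shANP32B. Of the eosinophil list, 7 of 8 were in the tables, 6 fell and none rose, and the sum was 1632 to 1822 CPM against 560 to 647 CPM, with PRG3 and RNASE3 listed at 0 in at least 1 library. The megakaryocyte and platelet list, with 9 of 11 in the tables, summed to 2049 to 2330 CPM against 2533 to 2702 CPM, with 2 genes up and 1 down. The erythroid list, all 8 of which were in the tables and 4 of which are among the 32 genes, summed to 4566 to 5026 CPM against 2970 to 3152 CPM, and 6 of its genes fell. Most of that sum was TFRC, the transferrin receptor of dividing cells in general, at 3837 and 4186 CPM against 2444 and 2638 CPM. The other 7 summed to 729 and 840 CPM against 527 and 515 CPM, a split made after the values were seen. The part of these markers in the results above was not tested.

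In LSK cells, none of the 25 genes passed the test between KO and WT, where 0% of the 14598 genes tested did by edgeR's quasi-likelihood test, and the smallest adjusted p among the 25 was 0.986. DESeq2 called none of them either, of 15 calls over all genes. At an unadjusted p under 0.05, 2 of the 25 stood, Cpox and Hemgn, where 4.5% of all genes tested did. The median log2 fold change was 0.18, against -0.0079 over all genes tested, with 17 values above 0 and 8 below. Both KO libraries lay above both WT libraries for 5 genes, Hba-a2, Cpox, Gypc, Icam4 and Hemgn, and below them for Uros, where 17.7% and 15.6% of all genes tested did.

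**Figure D3:**
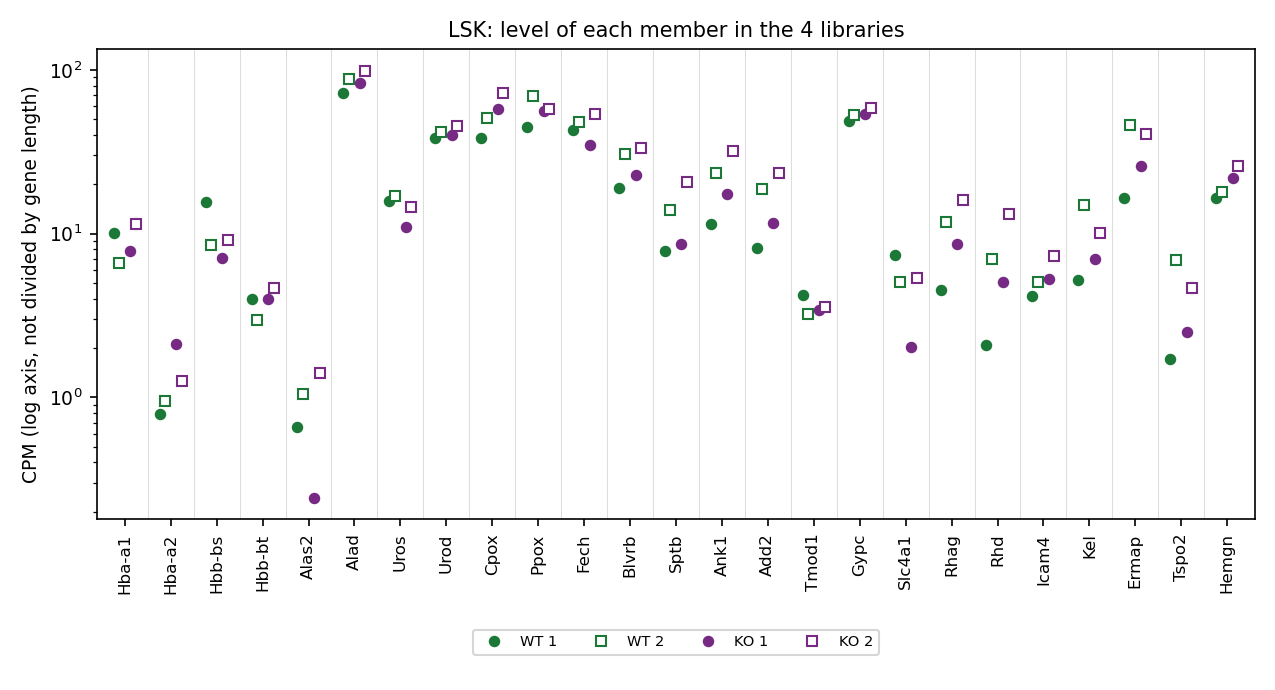
Level of each of the 25 genes in the 4 LSK libraries, in CPM on a log axis and not divided by gene length; green marks are WT, purple marks KO, circles the libraries numbered 1 and squares those numbered 2. For Rhag, Rhd, Ank1 and Add2 the squares lie above the circles in both genotypes, while Cpox and Hemgn have both purple marks above both green ones.

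Cpox was at 38.5 and 50.6 CPM in WT and at 57.7 and 72.3 CPM in KO (log2 fold change 0.55, SE 0.18, unadjusted p = 0.0181 by edgeR's quasi-likelihood test). Hemgn was at 16.6 and 17.9 CPM against 21.96 and 25.998 CPM (0.48, SE 0.19, unadjusted p = 0.0364 by the same test). Neither passed after adjustment. Alas2 was near the floor, at 0.655 and 1.05 CPM against 0.244 and 1.40 CPM, so that the interval of its change ran from -1.97 to 1.96. Alas1, the other form of that enzyme, was at 196 and 182 CPM against 150 and 197 CPM (-0.12, SE 0.17, adjusted p = 0.989). Uros was at 15.8 and 16.9 CPM against 11.0 and 14.5 CPM (-0.36, SE 0.22, adjusted p = 0.986), and Alad at 72.5 and 87.8 CPM against 83.05 and 99.03 CPM (0.19, SE 0.16, adjusted p = 0.986). The other heme genes had values of -0.040 to 0.18. Urod was at 38.3 and 41.8 CPM against 39.9 and 45.1 CPM, and Ppox at 45.0 and 69.5 CPM against 56.4 and 57.9 CPM. Fech was at 42.9 and 48.2 CPM against 34.8 and 53.5 CPM, and Blvrb at 19.0 and 30.4 CPM against 22.7 and 33.1 CPM.

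Per kilobase of exon, on the length of all exons joined in GENCODE vM21, Alad was the highest of the 25 genes in WT, with a mean of 42.8 CPM per kb (SD 5.78, n = 2), followed by Gypc at 21.8 (SD 1.28). Hbb-bs came next at 15.7 CPM per kb (SD 6.54) and did not stand apart from Urod at 15.5 (SD 0.942). Alas2 was the lowest at 0.355 CPM per kb (SD 0.116). The order on this scale put most heme enzymes above the skeleton genes Add2, Ank1, Tmod1 and Sptb, at 0.897 to 1.33 CPM per kb. The skeleton genes Epb41 and Epb42, listed under the older symbols Epb4.1 and Epb4.2, were not placed in this order. Epb4.1 was at 228 and 196 CPM in WT, with 15942 bases of joined exons, so the contrast does not extend to all skeleton genes.

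Globin counts were scarce in LSK, though reads shared by gene copies may be missing from them. Hba-a1 was at 10.1 and 6.58 CPM in WT and at 7.81 and 11.5 CPM in KO (0.20, SE 0.32, adjusted p = 0.989), and Hba-a2 at 0.787 and 0.954 CPM against 2.11 and 1.26 CPM (0.95, SE 0.57, adjusted p = 0.986). Hbb-bs was at 15.6 and 8.49 CPM against 7.08 and 9.16 CPM (-0.58, SE 0.34, adjusted p = 0.986), and Hbb-bt at 3.998 and 2.96 CPM against 3.99 and 4.68 CPM (0.31, SE 0.38, adjusted p = 0.989). No globin passed, and the intervals of near-identical copies overlapped. The 4 genes took 0.0030% and 0.0019% of WT counts and 0.0021% and 0.0027% of KO counts, with an exact permutation p of 1.

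For the skeleton genes Ank1, Add2 and Sptb and for Rhag and Rhd, libraries of 1 genotype lay further apart than the means of the genotypes. Ank1 was at 11.4 and 23.5 CPM in WT and at 17.6 and 32.0 CPM in KO (0.52, SE 0.38, adjusted p = 0.986). Add2 was at 8.19 and 18.8 CPM against 11.6 and 23.6 CPM (0.40, SE 0.44, adjusted p = 0.989), and Sptb at 7.87 and 13.9 CPM against 8.62 and 20.6 CPM (0.44, SE 0.43, adjusted p = 0.986). In each, the library numbered 2 was the higher of its pair. Tmod1 was at 4.19 and 3.24 CPM against 3.42 and 3.56 CPM (-0.097, SE 0.38, adjusted p = 0.996).

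Rhag was at 4.52 and 11.8 CPM in WT and at 8.62 and 16.1 CPM in KO (0.62, SE 0.48, adjusted p = 0.986). Rhd was at 2.10 and 6.97 CPM against 5.04 and 13.2 CPM (1.04, SE 0.62, adjusted p = 0.986). Slc4a1 was at 7.41 and 5.06 CPM against 2.03 and 5.38 CPM (-0.75, SE 0.49, adjusted p = 0.986). The Rh genes and band 3 thus had values on opposite sides of 0. Icam4 was at 4.13 and 5.06 CPM against 5.29 and 7.34 CPM (0.46, SE 0.34, adjusted p = 0.986). Gypc was at 48.6 and 52.9 CPM against 53.7 and 58.6 CPM, and Ermap at 16.4 and 46.0 CPM against 25.7 and 40.5 CPM. These had values of 0.15 and 0.10. Kel was at 5.18 and 14.9 CPM against 6.995 and 10.1 CPM, and Tspo2 at 1.70 and 6.87 CPM against 2.52 and 4.68 CPM. Both were slightly below 0, at -0.22. The tables also hold Epb4.1 and Epb4.2, older symbols of Epb41 and Epb42 that were not counted among the 25. Epb4.1 was at 228 and 196 CPM against 204 and 201 CPM, and Epb4.2 at 1.70 and 3.72 CPM against 1.63 and 2.02 CPM.

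For 19 of the 25 genes the library numbered 2 was above the library numbered 1 in both genotypes, and for none was it below in both, where 24.04% of all 17097 genes listed were above in both. By more than 1.5-fold in both genotypes this held for 8 genes, or 32% (Alas2, Sptb, Ank1, Add2, Rhag, Rhd, Ermap and Tspo2), against 3.32% of all genes listed. None of the 4 globins was among the 19, nor were Slc4a1 and Tmod1, while all 8 heme genes were. The number is the only thing the labels say same-numbered libraries share. Klf1 showed the same order, at 6.62 and 17.7 CPM in WT and 14.7 and 26.1 CPM in KO, and so did Gata1, at 16.6 and 19.4 CPM and at 22.1 and 29.4 CPM. Without WT library 2, edgeR's quasi-likelihood test called 4 of the 25 higher in KO, Cpox, Rhag, Rhd and Ermap, where it called 830 genes in all. It called none of the 25 without any other single library, and the median of the 25 was -0.10 without KO library 2.

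None of the other genes of these pathways passed in LSK, where 18 heme, 27 membrane, 18 transcription and 7 globin or enzyme genes were tested, with medians of 0.033, 0.037, 0.22 and 0.076. Tal1, a factor of early blood cells, was at 68.3 and 100.001 CPM in WT and at 128 and 132 CPM in KO (0.63, SE 0.19, unadjusted p = 0.0112 by edgeR's quasi-likelihood test). Glrx5, which acts in iron-sulfur cluster assembly, was at 44.0 and 49.8 CPM against 57.3 and 69.9 CPM (0.44, SE 0.16, unadjusted p = 0.0230 by the same test). Both had the KO libraries above the WT libraries, as 17.7% of all genes tested did, and neither passed after adjustment. Sema7a, which carries a blood group antigen, was at 4.72 and 6.68 CPM against 10.7 and 8.81 CPM. The neutrophil and monocyte markers, 12 of 13 in the tables, summed to 1622 to 1699 CPM in WT and 1155 to 1294 CPM in KO, and the erythroid markers, 6 of 8, to 198 to 200 CPM against 160 to 193 CPM. Tfrc alone was at 173 and 155 CPM against 131 and 139 CPM, and the other 5 erythroid markers summed to 24.3 and 44.2 CPM against 29.4 and 54.3 CPM, higher in the library numbered 2 of each genotype. The part of these markers in the values above was not tested.

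The responses of the 2 cell types were set against each other in 1 fit over symbols found in both species, in which 10771 genes and 21 of the genes followed here were tested. HEMGN and CPOX responded differently, with values below 0 after knockdown in KU812 and above 0 with KO in LSK. The difference was -1.49 for HEMGN (SE 0.26, adjusted p = 0.0174, edgeR's quasi-likelihood test) and -1.32 for CPOX (SE 0.26, adjusted p = 0.0282). The 2 of 21 compare with 1.33% of all genes tested whose KU812 response was the lower (2.22% in either direction), and none of the 21 passed in the other direction, where 0.891% did. Across the 21, 19 differences were below 0, with a median of -0.54 against -0.00097 over all genes tested. The values of 13 genes were below 0 in KU812 and above 0 in LSK, and those of 5 below 0 in both.

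**Figure D4:**
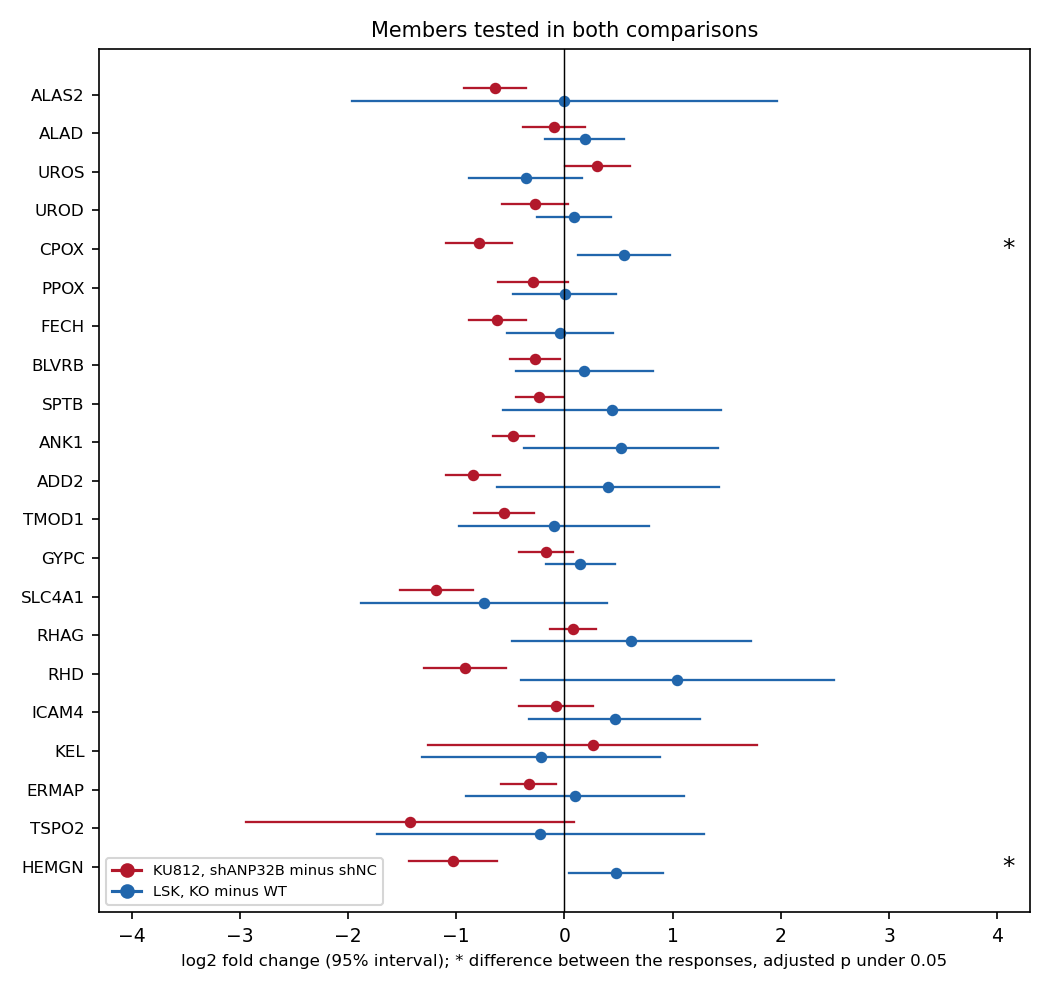
Log2 fold changes with 95% intervals of the 21 genes tested in both cell types, red for shANP32B minus shNC in KU812 and blue for KO minus WT in LSK; a star marks a difference between the responses with an adjusted p under 0.05. CPOX and HEMGN carry the stars, and their red and blue intervals lie on opposite sides of 0.

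Both calls depended on single libraries. Neither gene passed without shANP32B library 1 (adjusted p = 0.0716 for CPOX and 0.0696 for HEMGN), shANP32B library 2 (0.135 and 0.0767), KO library 1 (0.0756 and 0.0627) or KO library 2 (0.160 and 0.108), and CPOX did not pass without shNC library 1 (0.0961). The CPOX difference stayed between -1.53 and -1.08 and the HEMGN difference between -1.60 and -1.36 in all these fits. Without WT library 2, more genes passed among the 21, but more also passed over all genes tested, so the added ones are not read as a result. Next to the calls, RHD differed by -1.97 (SE 0.67, adjusted p = 0.150) and ADD2 by -1.25 (SE 0.47, adjusted p = 0.190), neither past the threshold. The comparison also differs in species, in the loss of ANP32B by hairpin or deletion and in cell type, and these cannot be told apart. In the mouse, Hemgn (chr4:46393989-46413506) lies close to the targeted gene Anp32b (chr4:46450902-46472657), and Tmod1 (chr4:46038935-46116032) lies in the same region. Whether this position bears on the KO values of Hemgn and Tmod1 was not tested. Promoter windows of the human genes are not analysed here.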

How the data were processed

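RNA-seq gene counts from 2 WT and 2 Anp32b-KO mouse LSK libraries and from 2 shNC and 2 shANP32B KU812 libraries were used. The values are raw counts per gene symbol, 1 table per library, as the authors deposited them, and no gene in a table has under 10 counts in all, summed over an experiment. RNA was extracted with Trizol, per the labels' protocols. Tools named without a role in the submitters' processing notes are TopHat, HISAT2, DESeq and Cufflinks, and the builds are GRCm38 and GRCh38. The counter, its strand setting, its handling of reads shared by gene copies and the annotation used are not stated in the labels, the file headers or those notes.

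Each experiment was fitted on its whole table with edgeR 4.0.16 in R 4.3.3 (filterByExpr, TMM scaling, quasi-likelihood F test, Benjamini-Hochberg adjustment over all genes tested, threshold 0.05). CPM use TMM-scaled totals. Fold changes are edgeR's, with its default prior count, SE is the unmoderated coefficient divided by the square root of F, and intervals are at 95%. The responses were compared by an interaction term in 1 fit over 10855 shared symbols. Alternatives were RLE or library-total scaling, no filter, DESeq2 1.42.0, the replicate number as a block and each library left out. The procedure was tested on simulated data with changes of 1.5, 2 and 4-fold. These changes were planted only in genes above a limit on mean counts, so recovery for genes with lower counts was not measured. The procedure recovered 37.3%, 70.1% and 89.4% of the changes in KU812 and 8.96%, 47.8% and 89.4% in LSK. For the interaction the values were 8.96%, 41.8% and 89.4%. Of the calls, 5.76% were false in KU812, 19.2% in LSK and 8.82% in the interaction. Most changes of 1.5-fold were thus missed in LSK and in the interaction. Every listed gene of the group was named with its levels. Statistics were given for those past the threshold and for up to 4 others per role with the smallest p. Up to 4 genes were named from each further list, with ALAS1 and some other heme genes added. Some genes of these lists are not reported here. The genes and lists were chosen with earlier results of these data known, so no test was made over a list.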

Additional observations from a re-analysis of the deposited data

Results flagged for a closer look

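The responses of CPOX and HEMGN differed between the cell types by the test of the difference itself (edgeR's quasi-likelihood test of the interaction term). For CPOX, the KU812 response lay below the LSK response by -1.32 on the log2 scale (adjusted p = 0.0282). For HEMGN the difference was -1.49 (adjusted p = 0.0174). Both calls depended on single libraries, as described above, and neither gene passed the test between KO and WT in LSK by itself. With 2 libraries per group, no group was large enough to be examined for a single outlying library.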

How the results depend on the processing

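With 2 libraries per group, a fit that leaves 1 out assumes that the lone library varies like the other groups. In KU812 the same 16 genes passed under RLE scaling, library-total scaling, no filter and DESeq2, which added HBG1. Library-total scaling moved the median of the 32 genes to -0.39 and the split over all genes to 1474 higher and 1182 lower, from 1244 and 1497 (median of all genes 0.060). With 1 library left out, 12 to 21 of the 32 passed, of 1413 (without shANP32B library 2) to 4047 over all genes, with 1621 without shANP32B library 1. The number that rose was 1 to 3 (3 without shNC library 2, with UROS and KEL added), the number that fell 11 to 20, and the median -0.52 to -0.42. In LSK the number higher was 0 to 4 and the median -0.10 to 0.53. The number of genes whose KU812 response lay below the LSK response was 0 to 7.

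The libraries share only a replicate number. The correlation of same-numbered libraries' deviations was 0.116 in KU812 and -0.0686 in LSK. With that number as a replicate block, 2 of the 32 rose (HBD and UROS) and 17 fell (HBG1 and ERMAP added), of 4164 calls over all genes. None of the 25 LSK genes passed, and 5 genes had the lower KU812 response (ANK1, ADD2 and RHD added). The interaction then made 285 calls over all genes, against 239 in the main fit.

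Under the other scalings, 6 to 9 of the 25 LSK values were below 0. Single values changed sign when a library was left out, over ranges of -0.48 to 0.85 for HBA2 (below 0 without shNC library 1, and -0.13 without shANP32B library 2), -0.51 to 0.0025 for UROD and -0.016 to 0.16 for RHAG (both changed without shNC library 2). In LSK the ranges were -0.10 to 0.55 for Hba-a1 (also -0.066 without WT library 2), -0.33 to 0.93 for Sptb and -0.20 to 1.105 for Add2 (also -0.092 without WT library 1), each lowest without KO library 2, -0.12 to 0.55 for Blvrb, below 0 without WT library 1 or KO library 2 (-0.12 each), and -0.27 to 0.10 for Tmod1, above 0 without WT library 1.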
